A study of Mus musculus with 4 samples.

Results

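The immune cells of the ligated mouse carotid artery were examined by single-cell RNA sequencing (scRNA-seq) in 1 library from control mice and 1 from *Trf2T188A* mice. A cell was taken as immune when at least 4 of 7 leukocyte genes (*Lyz2*, *C1qa*, *C1qb*, *Fcer1g*, *Tyrobp*, *Laptm5*, *Ptprc*) and fewer than 4 of 7 endothelial genes (*Pecam1*, *Cdh5*, *Cldn5*, *Egfl7*, *Vwf*, *Ptprb*, *Ctla2a*) had a unique molecular identifier (UMI, 1 counted transcript molecule). This rule found 80 of 10359 ligation cells, or 0.772% (95% exact binomial interval 0.613 to 0.960). The whole series held 12790 cells in 4 libraries, the other 2 being from atherosclerotic plaques of Myh11-CreERt2/Confetti/ApoE-/- mice without or with the Sm22a-Trf2T188A transgene. The mice of both plaque libraries had received tamoxifen and then a high fat diet.

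Control mice were wild-type littermates, and *Trf2T188A* mice carried the SM22a-TRF2T188A transgene, both on a C57Bl/6 background. TRF2 is a telomere-binding protein of the shelterin complex. By the paper, the minimal *Sm22a* promoter places its mutant form in arterial vascular smooth muscle cells (VSMCs), not in blood or bone marrow cells. As a limit, the paper adds that other lineages might express it when they take on a VSMC-like state, and names endothelial and bone marrow-derived cells. Carotids were taken 28 days after ligation, which obstructs flow and is followed by growth of a VSMC-rich neointima. Adventitia, the outer layer in which many resident arterial macrophages lie, and segments without remodelling were dissected away before digestion. How many mice were pooled for a library is not stated in the sources used here. With 1 library per genotype no test of genotype was possible, and the intervals printed here cover counting error only.

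Macrophages are long-lived tissue phagocytes that depend on the receptor encoded by *Csf1r*. They clear dead cells and lipid, present peptides on MHC class II molecules, and release chemokines, cytokines and growth factors to which VSMCs respond. In injured and atherosclerotic arteries they are known as a source of interleukin-1β and tumour necrosis factor, and VSMCs that take up lipid can switch on some genes that are also used as macrophage markers.

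The control library held 4967 cells with a median of 8631 UMIs and the *Trf2T188A* library 5392 cells with a median of 11153 UMIs. The 80 immune cells held 2857 to 35782 UMIs each, with a median of 8365.5 against 9919 in the 10279 other ligation cells. The libraries shared 10 cell barcodes, of which 1 belonged to an immune cell in at least 1 library. The rule picked 26 control cells, 0.523% of that library (0.342 to 0.766), and 54 *Trf2T188A* cells, 1.001% (0.753 to 1.30). After each cell was thinned to 5000 UMIs, which left out 325 control and 154 *Trf2T188A* cells, these shares were 0.302% (0.165 to 0.506) and 0.745% (0.530 to 1.02). Endothelial cells by the same 7 endothelial genes were 1.27% (0.976 to 1.62) and 1.24% (0.964 to 1.58) of the libraries. The immune share was thus higher in the *Trf2T188A* library and the endothelial share was close to equal, but genotype and library cannot be told apart.

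The number of leukocyte genes per cell was sharply divided. No leukocyte gene of the rule had a UMI in 10181 cells, 1 gene in 77, 2 in 16, 3 in 4, 4 in 5, 5 in 9, 6 in 8 and all 7 in 59. The 5 cells just inside the limit held a median of 3 (range 0 to 12) of 20 other leukocyte genes that the rule did not read, such as *Cd52*, *Lcp1*, *Coro1a* and *Spi1*. The 4 cells just outside it held a median of 1.5 (1 to 2). Both sets had high smooth muscle transcript levels, with a median sum over 12 smooth muscle genes of 553 UMIs per 10000 inside and 427 outside. The 59 cells with all 7 genes held a median of 14 of the 20 leukocyte genes and a median smooth muscle sum of 5.05 UMIs per 10000.

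The immune cells therefore fell into 2 sets by their smooth muscle transcripts, and each result below is read with this in mind. The smooth muscle sum was 0 to 25.8 UMIs per 10000 in 61 cells and 46.8 to 716 in the other 19, and a limit of 40 was placed in the gap after the values were seen. The 61 low cells, 16 control and 45 *Trf2T188A*, carried 7 to 19 of the 20 leukocyte genes, and all of them lay in the single immune cluster of an unsupervised clustering of both libraries. The 19 high cells, 10 control and 9 *Trf2T188A*, carried 0 to 18 leukocyte genes with a median of 8, and 10 of them lay in VSMC clusters. The high cells made up 38.5% of the control but 16.7% of the *Trf2T188A* immune cells. They held a median of 15582 UMIs against 7011 in the low cells. A doublet caller (Scrublet) marked 1 of the 10359 cells and so gave no usable call, but 2 immune cells, both in the high set, were among the highest 5% of its scores. Whether the high cells hold more than 1 cell was not tested further. The low cells were 0.322% (0.184 to 0.523) of the control and 0.835% (0.609 to 1.12) of the *Trf2T188A* library.

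**Figure D1:**
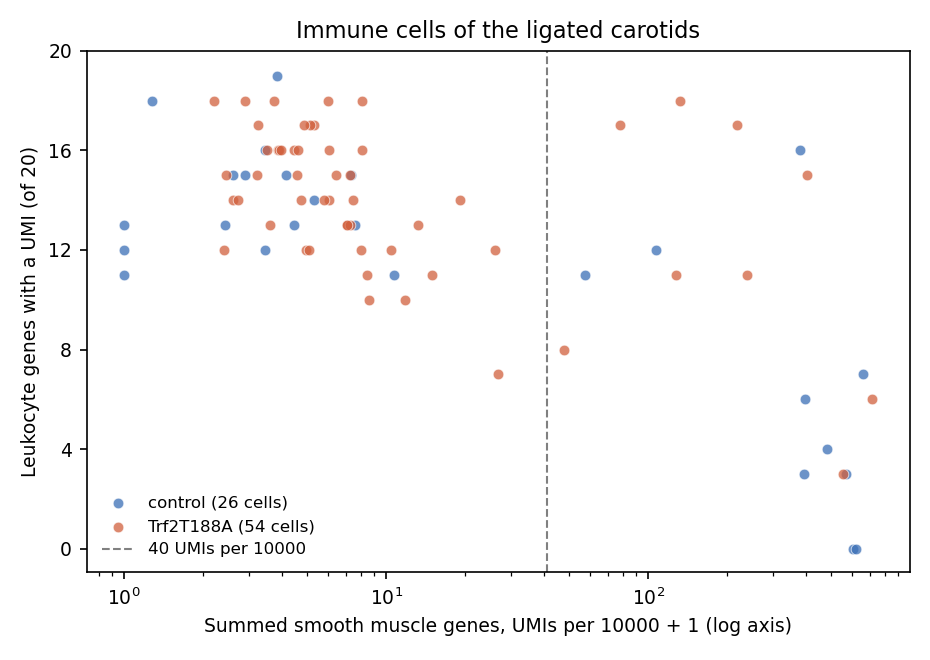
Each point is 1 immune cell, with the sum of 12 smooth muscle genes (UMIs per 10000 plus 1, log axis) on the horizontal and the number of 20 leukocyte genes with a UMI on the vertical axis, coloured by library. The 61 cells left of the dashed line at 40 carry 7 to 19 leukocyte genes, whereas the 19 cells to its right spread from 0 to 18.

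The remaining smooth muscle transcripts were compared with those of endothelial cells of the same library, which should also lack them. In the low set, each smooth muscle gene stood at a median of 0.183% of its level in VSMC-rich cells in the control (16 cells) and 1.68% in the *Trf2T188A* library (45 cells). In endothelial cells under the same limit these medians were 1.01% (51 cells) and 1.22% (53 cells). Over all immune cells they were 40.4% in the control and 11.8% in the *Trf2T188A* library, against 7.95% and 12.03% in all endothelial cells. The limit was set on these same genes, so the medians under it describe the choice of cells in both cell types. The 10 control cells above the limit carried most of the level over all control immune cells.

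Levels are given below as mean UMIs per 10000 UMIs of a cell, and the ratio of 2 means as log2 after adding 1 to each, which understates the ratio of low genes. A gene was called higher or lower at a log2 ratio of at least 1 in either direction, a rule of size and not a test. Of 9018 genes with a UMI in at least 10% of the immune or of the other cells, 272 (3.02%) were higher and 246 (2.73%) lower in immune cells, with a median log2 ratio of −0.04 over all 9018. Within the control library alone 226 (2.51%) were higher and 133 (1.47%) lower, and within the *Trf2T188A* library 310 (3.44%) and 326 (3.61%). With summed UMIs the calls were 225 higher and 129 lower, and with the difference of mean log2 values 167 and 236. The cells were chosen by their own leukocyte genes, so these ratios describe them and were not tested.

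The 20 leukocyte genes outside the rule checked the label. Of them 16 were higher and none lower, with a median log2 ratio of 1.62, led by *Ctss*, the glycoprotein gene *Cd52* (3.68) and the actin-bundling gene *Lcp1* (3.56). *Cd52* had a UMI in 75 and *Lcp1* in 74 of 80 immune cells. The monocyte list gave no such pattern, with 2 of 6 lower, none higher and a median of −0.25, and 2 cells had a UMI of *Ly6c2*. That median mixes genes that other cells often express with genes nearly absent from them. After thinning, *Vcan*, *Ace* and *Nr4a1* were found in 46.5%, 51.6% and 68.8% of other control cells. They were in 23.8%, 19.0% and 57.1% of control immune cells. *Spn*, *Itgal* and *Ccr2* were in 0.173%, 0.0433% and 0% of the others and 28.6%, 9.52% and 14.3% of the immune cells. These genes had the same directions in the *Trf2T188A* library. The 12 mitochondrially encoded genes had a median of −0.12 with none past the limit.

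*Cd74*, the invariant chain that guides MHC class II molecules to peptide, stood furthest from the other cells. Its level was 78.2 UMIs per 10000 in control immune cells (range 0 to 305, median 29.4) and 161 in *Trf2T188A* immune cells (0 to 399, median 170). The other cells of the same libraries had 0.309 and 0.158. The log2 ratio of immune to other cells was 6.78 (95% counting interval 6.74 to 6.81), and 7.10 for the 61 low smooth muscle cells. The 3 classical class II chain genes followed it, with log2 ratios of 5.66 for *H2-Eb1*, 5.55 for *H2-Aa* and 5.52 for *H2-Ab1*. *Cd74* UMIs were found in 93.8% of immune cells, 61.5% of the 130 endothelial cells and 3.42% of all other cells, the endothelial cells included. Among 12 class II presentation genes, 8 were higher and none lower, with a median log2 ratio of 2.04. The co-stimulatory ligand gene *Cd86* was among the higher genes at 2.02, whereas *Cd40* (0.51) and *Cd80* (0.20) were below the limit. The class II regulator *Ciita* had a UMI in 15 of 80 cells and a log2 ratio of 0.41.

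MHC class I genes, which most cells express, differed less. Of 10 compared, 5 were higher and none lower (median 0.98). The heavy chain genes *H2-D1* (2.11) and *H2-K1* (2.03) and the light chain gene *B2m* (1.59) were among them, as was the immunoproteasome gene *Psmb8* (1.72). *B2m* had a UMI in 80 of 80 immune cells, with a mean of 23.2 against 7.04 UMIs per 10000 in other cells.

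Chemokines, which recruit leukocytes, had a median of 2.15, with 12 of 15 compared genes higher and none lower. On the difference of mean log2 values, which gives less weight to cells of very high level, this median was 1.01 and that of the class II list 1.57. *Cxcl2* (chr5:90903871-90905938, GRCm38.p6), a neutrophil attractant, had a mean of 61.1 UMIs per 10000 in control immune cells (0 to 452, median 6.63) and 146 in *Trf2T188A* immune cells (0 to 654, median 102). In the other cells it was 0.496 and 0.625, and the log2 ratio was 6.25 (6.22 to 6.29). *Cxcl2* was uneven among the cells: 64 of 80 had a UMI, and 1 control cell gave 28.4% of the summed control level. The macrophage inflammatory protein genes *Ccl4* (5.47) and *Ccl3* (3.95) and the monocyte attractant gene *Ccl2* (2.81) were also among the 25 highest genes. *Ccl4* was found in 68 cells, *Ccl3* in 55 and *Ccl2* in 48. *Cxcl16*, which is both a chemokine and a scavenger receptor, had a log2 ratio of 2.22. *Cxcl12*, a chemokine of stromal cells, was the lowest of the list at −0.89, and *Cx3cl1*, the ligand of *Cx3cr1*, stood at −0.25. Endothelial cells shared part of this pattern, with 6.54 UMIs per 10000 of *Cxcl2* and 7.17 of *Cxcl1*.

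Cytokine and growth factor genes were mixed. Of 21 compared genes whose products reach VSMCs, 8 were higher, 2 lower and 11 in between, with a median of −0.05. *Il1b* (chr2:129364570-129371139), which encodes interleukin-1β, had a mean of 7.56 UMIs per 10000 in control immune cells (median 0, highest cell 145) and 8.96 in *Trf2T188A* immune cells (median 1.20, highest cell 151). A single control cell gave 74.0% of the control level, so the control mean says little about a typical cell. Its log2 ratio was 3.25, with a UMI in 39 of 80 immune cells but 0.0486% of other cells. *Tnf* (3.08) was more widely spread, with a UMI in 59 cells. *Tnf* was found in 92.3% of the cells with *Il1b* and in 56.1% of those without, at median depths of 8009 and 8956 UMIs. The growth factor gene *Igf1* had a log2 ratio of 1.80, *Gdf15* of 1.26, *Il10* of 1.15, *Osm* of 1.10 and *Pdgfb*, a VSMC mitogen, of 1.03. *Tgfb1* was at 0.73. *Il6* had a UMI in 4 of 80 cells. The 2 lower genes, *Hbegf* (−1.60) and *Tgfb2* (−1.04), had their higher level in the VSMC-rich remainder.

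Receptors and signalling genes of phagocytes were detected in many immune cells at low levels. Among 20 Fc receptor and ITAM genes, 10 were higher and none lower (median 0.98), led by *Trem2* (2.53), a lipid-sensing receptor, the kinase gene *Lyn* (2.13), the low-affinity IgG receptor gene *Fcgr3* (1.65) and the inhibitory receptor gene *Sirpa* (1.64). Of 21 chemokine and cytokine receptor genes, 4 passed the limit, among them *Csf1r* (2.08), *Cx3cr1* (1.98) and *Csf2ra* (1.53). *Cd14* (3.98), a co-receptor for bacterial lipopolysaccharide, was among the 25 highest genes. *Ccr2*, the receptor that brings monocytes out of the marrow, had a UMI in 16 immune cells and in none of the 10279 others.

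Complement genes were divided, with 5 of 12 compared genes higher and 1 lower (median 0.67). *C1qc* (chr4:136889804-136893065), a subunit of C1q whose partners *C1qa* and *C1qb* are rule genes, averaged 16.6 UMIs per 10000 in control (0 to 41.2, median 16.7) and 23.2 in *Trf2T188A* immune cells (0 to 59.9, median 21.7). The level in other cells was 0.00248 and 0.002, and the log2 ratio was 4.46 (4.38 to 4.54). The anaphylatoxin receptor genes *C3ar1* (2.31) and *C5ar1* (1.65) and the properdin gene *Cfp* (1.20) were also higher. *C2*, *Cfb*, *Cfd* and *C1rb* had no UMI in the 80 cells. *C3*, the central component, had a log2 ratio of 0.02.

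Genes for the killing and digestion of ingested material were largely higher. Of 9 compared genes of the NADPH oxidase and phagocyte effector list, 7 were higher and none lower (median 1.38), with *Cybb*, the catalytic subunit, and *Mpeg1*, a pore-forming protein, both at 2.81. *Nos2* and *Arg1*, which are often used to mark opposed macrophage states, had no UMI in the 80 cells. Among 26 lysosomal genes, 11 were higher and none lower (median 0.85). Cathepsin S (*Ctss*, 4.09), an endopeptidase that processes the invariant chain, led them, before *Ctsb* (2.25) and *Ctsc* (2.2). Cathepsin K (*Ctsk*, −0.55) and cathepsin L (*Ctsl*, −0.76) were on the VSMC side without passing the limit.

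Lipid and iron handling genes came next. In the list for foam and lipid-associated macrophages 10 of 19 compared genes were higher and 1 lower (median 1.03). *Apoe* (chr7:19696109-19699188), the apolipoprotein that carries exported cholesterol, had a mean of 156 UMIs per 10000 in control (0 to 989, median 24.4) and 212 in *Trf2T188A* immune cells (0 to 1019, median 80.3). Other cells had 10.9 and 9.09, and endothelial cells alone had 129, so *Apoe* at log2 4.15 separated immune cells from VSMCs and less so from endothelium. *Lgals3* (3.39) had a UMI in 80 of 80 immune cells, 54.1% of other cells and 9.23% of endothelial cells. The cholesterol exporter genes *Abca1* (1.20) and *Abcg1* (1.03), the scavenger receptor gene *Cd36* (1.41) and the lipid droplet gene *Plin2* (1.52) were higher. *Spp1* (−0.05) and *Gpnmb*, which mark foamy macrophages in plaques, were not higher in mean level. *Gpnmb* had a UMI in 3 immune cells, or 3.75%, and in 5.65% of other cells. *Spp1* was detected more often in immune cells. After thinning it was found in 23.8% of control immune cells and 9.76% of other control cells. In the *Trf2T188A* library these *Spp1* shares were 25.6% and 11.5%. Of 10 iron handling genes 4 were higher and none lower (median 0.74), and the ferritin genes *Ftl1* (2.15) and *Fth1* (1.14) among them had a UMI in 80 of 80 immune cells.

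Genes for the uptake of dead cells were split. Of 14 compared, 5 were higher and 2 lower (median 0.50). *Trem2*, *Dab2* (1.90), the mannose receptor gene *Mrc1* (1.61), *Cd36* and *Havcr2* (1.01) were higher. The bridging molecules *Mfge8* (−1.74) and *Gas6* (−1.31) were lower, and the receptor gene *Mertk* had a log2 ratio of −0.19. Among 13 matrix protease and inhibitor genes, 4 were higher: *Ctss*, the macrophage elastase gene *Mmp12* (2.33), the urokinase receptor gene *Plaur* (1.43) and the urokinase gene *Plau* (1.21). *Mmp12* had a UMI in 30 cells and *Mmp13* in 10. The inhibitor gene *Timp3* was lower (−1.80), and *Mmp3* had no UMI in the 80 cells.

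**Figure D2:**
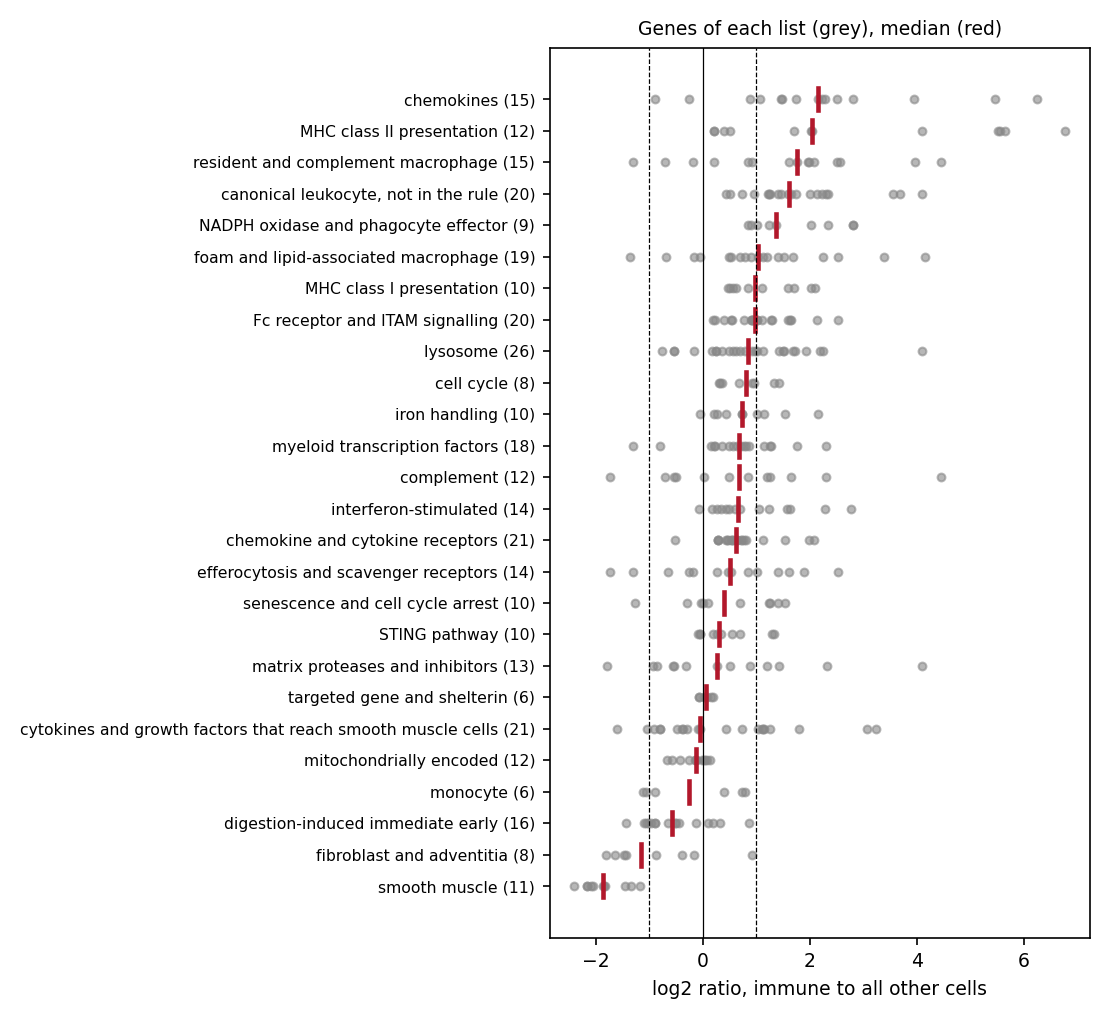
Each grey point is 1 compared gene, placed by its log2 ratio of immune to all other ligation cells, in the list named at the left with its number of compared genes, and red bars are list medians. The chemokine and MHC class II lists have medians of 2.15 and 2.04, the smooth muscle list lies wholly below the dashed line at −1, and the median over all 9018 genes is −0.04.

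The lowest ratios belonged to matrix and contractile genes of VSMCs. *Mgp*, an inhibitor of calcification, was lowest at −2.78, followed by *Tagln* (−2.40), *Tm4sf1* (−2.38), *Cald1* (−2.35) and *Ccn2* (−2.33). All 11 compared smooth muscle genes were lower, with a median of −1.87 over all 80 cells and −3.43 over the 61 low cells. In the low cells the log2 ratio was −5.60 for *Mgp* and −5.72 for *Tagln*, in cells chosen for a low smooth muscle sum. Fibroblast genes had 4 of 8 lower (median −1.15), and *Dpt*, *Pi16* and *Clec3b*, which mark adventitial fibroblasts, had no UMI in the immune cells. Immediate early genes, which enzymatic digestion is known to induce, had a median of −0.58 with 4 of 16 lower, including *Fos* (−1.44) at 14.8 against 41.7 UMIs per 10000. Their summed level was 123 in control and 111 in *Trf2T188A* immune cells, against 185 and 171 in the other cells. Immune and other cells were digested together, so an effect of digestion on immune cells was not tested.

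**Figure D3:**
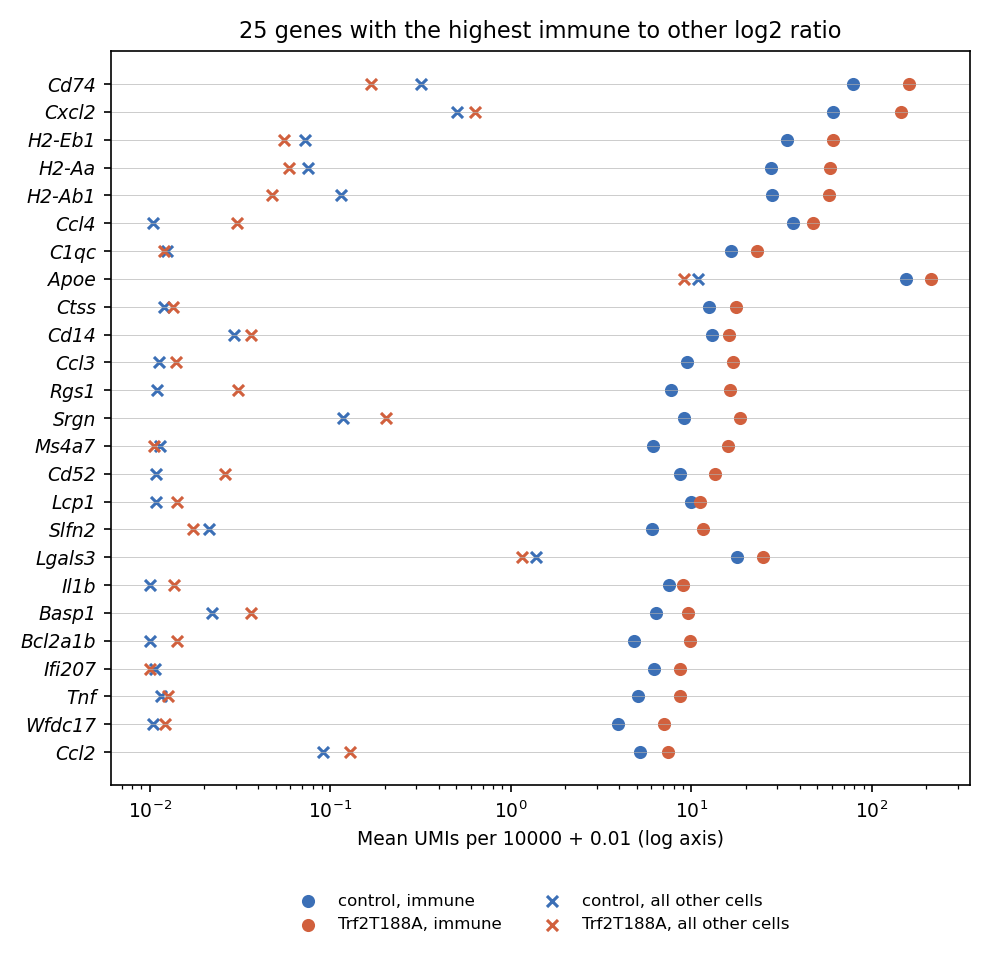
Mean level of the 25 genes with the highest log2 ratio, in UMIs per 10000 plus 0.01 on a log axis, for immune cells (circles) and all other cells (crosses) of the control and *Trf2T188A* libraries. For each gene both circles lie to the right of both crosses, and the gap is narrowest for *Apoe* and *Lgals3*, which other cells also express.

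Transcription factor genes of the myeloid lineage were low in level but clear in detection. *Spi1*, which encodes PU.1, had a UMI in 67 of 80 immune cells and in 0.0486% of others, with a log2 ratio of 2.30. Of 18 compared factors 5 were higher, among them *Spi1*, *Zeb2* (1.28), *Irf8* (1.26) and *Bach1* (1.14), and *Klf2* was lower (−1.30). The median of the list was 0.68.

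Promoter sequence was examined because *Spi1* and the leading genes were detected in the same cells. RefSeq promoters (GRCm38.p6, 250 bases before to 50 after the start) were matched for 23 of 32 genes, the 7 immune rule genes and the 25 highest genes together. The letters GAGGAAGT, a purine-rich run of the kind that PU.1 is known to bind, were sought on both strands. They were found in 3 of 23 promoters (13.04%), against 3.28% of all 27025 promoters and 3.43% of the 7112 promoters of compared genes. The shorter AGGAAG, which also lies inside GAGGAAGT, was in 14 of 23 (60.9%), against 35.1% of all and 33.5% of compared promoters. These are matches of letters in the window, not measured binding. The 3 stretches are shown because they belong to genes of the highest set, written in the direction of the gene with the match in capitals, which reads GAGGAAGT or its reverse complement.
*C1qc*, chr4:136893072-136893139, minus strand: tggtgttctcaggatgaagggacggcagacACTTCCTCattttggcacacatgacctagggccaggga
*Ctss*, chr3:95526754-95526805, plus strand: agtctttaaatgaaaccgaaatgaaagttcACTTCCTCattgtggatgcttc
*Bcl2a1b*, chr9:89199095-89199162, plus strand: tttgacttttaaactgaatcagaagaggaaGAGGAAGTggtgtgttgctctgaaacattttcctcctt
Counted from the RefSeq start of the window, which can differ from the start of the GENCODE gene span given above for *C1qc*, the match began 195 bases before the start in *C1qc*, 2 bases before it in *Ctss*, where it crosses the start, and 148 bases before it in *Bcl2a1b*. It lay on the strand of the gene in *Bcl2a1b* and on the opposite strand in *C1qc* and *Ctss*. *Bcl2a1b* (3.20) encodes an anti-apoptotic protein with near-identical paralogs, so its counts are uncertain.

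Interferon, DNA-sensing and damage genes were next compared, since the study concerned telomere damage. Of 14 interferon-stimulated genes 6 were higher (median 0.65), led by *Ifi27l2a* (2.78) and *Cxcl10* (2.28). In the STING pathway, 2 of 10 genes were higher, *Ifi204* (1.34) and *Ifi203* (1.29), members of a family of near-identical genes whose counts are uncertain, whereas *Cgas* (0.34) and *Sting1* (0.18) were not, and *Trex1* had no UMI. Of 10 senescence and arrest genes 4 were higher and 1 lower (median 0.40). The p53 target genes *Mdm2* (1.54), *Gdf15* and *Cdkn1a* (1.24) were among the higher ones, with *Cdkn1a* in 74 of 80 immune cells and 71.2% of other cells. *Cdkn2a*, which encodes p16, had a UMI in 3 immune cells. No gene of 6 compared shelterin genes passed the limit (median 0.06), and *Terf2*, which encodes TRF2, had a UMI in 1 of 26 control and 6 of 54 *Trf2T188A* immune cells. The deposited counts do not separate the transgene from the endogenous gene.

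Most immune cells carried macrophage genes. *Csf1r* had a UMI in 66 of 80 cells, *C1qc* in 69, *Cd68* in 62 and *Adgre1*, which encodes F4/80, in 56. Outside the immune cells *Csf1r* was found in 0.895% and *Adgre1* in 0.0195% of cells, at a higher median depth. *Trem2* was detected in 54 cells, *Cx3cr1* in 51, *Pf4* in 38 and *Mrc1* in 37. Genes listed for resident macrophages were uneven. *Folr2* was found in 6 cells and *Cd163*, *Lyve1* and *Timd4* in 1 each. *Mrc1* and *Pf4* of the same list were more frequent, as were *Stab1* and *Maf*. *Stab1* had a UMI in 9 of 26 control and 19 of 54 *Trf2T188A* cells, and *Maf* in 7 and 22. *Lyve1* was in 9.21% and *Cbr2* in 69.0% of other cells, so neither marked macrophages here. In control cells 61.5% (40.6 to 79.8) had *Trem2* and 73.1% (52.2 to 88.4) had *Csf1r*. In *Trf2T188A* cells these shares were 70.4% (56.4 to 82.0) and 87.0% (75.1 to 94.6). After thinning to 5000 UMIs, which left 21 and 43 cells, they were 38.1% and 61.9% in the control and 60.5% and 65.1% in *Trf2T188A* cells. The intervals of the libraries overlapped for both genes. All of these shares include the cells above the smooth muscle limit, 38.5% of the control and 16.7% of the *Trf2T188A* immune cells. Among the low cells alone the *Csf1r* share was close to equal in the libraries, and the *Trem2* share was higher in the control.

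**Figure D4:**
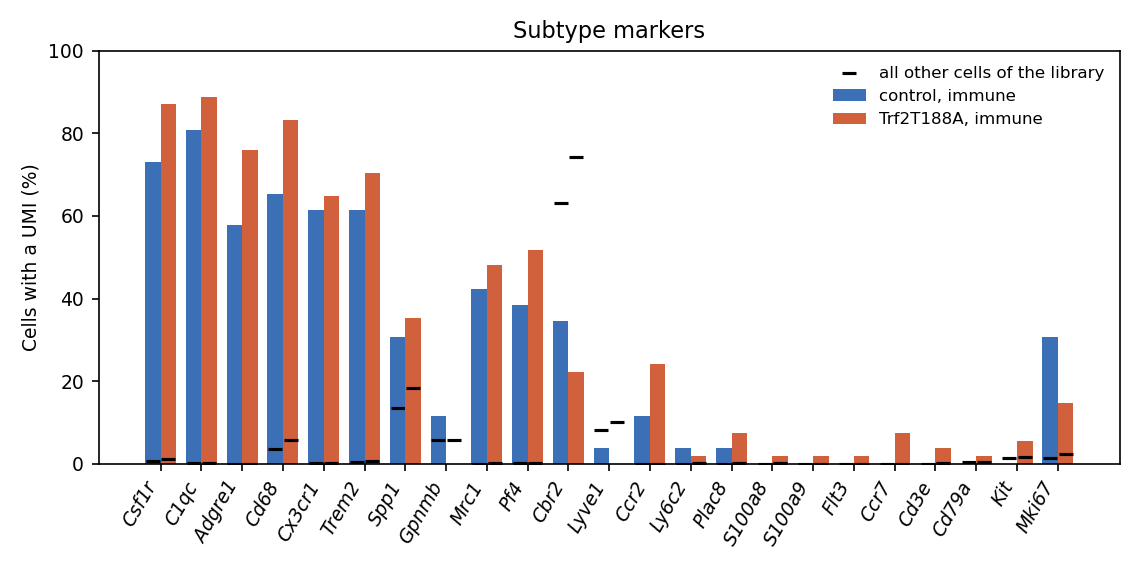
Percent of cells with at least 1 UMI of each subtype marker among the 26 control and 54 *Trf2T188A* immune cells (bars), with the percent among all other cells of the same library (black dashes). *Csf1r*, *C1qc* and *Adgre1* stand far above the dashes, *Cbr2* and *Lyve1* lie below them, and markers of neutrophils, T cells and B cells are near 0.

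Some macrophage genes were found together. *Pf4* was in 75.7% of the 37 *Mrc1*-positive cells and in 23.3% of the 43 others, at median depths of 8009 and 8403 UMIs. *Trem2* was in 83.8% and 53.5% of these cells. *Cx3cr1*-positive cells carried *Trem2* in 78.4% of cases and the rest in 48.3%, at 8200 and 8514 UMIs. *Il1b* and *Mrc1* were not separated, as *Mrc1* was in 43.6% of *Il1b*-positive and 48.8% of *Il1b*-negative cells. Of the 16 *Ccr2*-positive cells, 16 had *Cd74*, 13 had *Trem2* and 8 had *Mrc1*. These shares describe cells of 2 libraries that share depth and background, and no set of cells was given a subtype name from them. They were counted over all 80 immune cells, including those above the smooth muscle limit and those with few macrophage genes. Such cells can fill the groups without a gene, so the shares do not show that the genes go together among macrophages alone, which was not tested.

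A few immune cells had no UMI of *Csf1r* or *C1qc*. Among the 61 low smooth muscle cells there were 4 of these, and all 4 came from the *Trf2T188A* library. These 4 cells held 0 to 2 of the 20 genes listed for resident and complement macrophages, against a median of 9 over all immune cells. The rule gene *Lyz2* was found in 3 of the 4. They were high in class II genes, with a *Cd74* mean of 232.5 UMIs per 10000 against 163 in the other 57, and had no *Apoe* UMI against a mean of 255. *Cytip*, which regulates leukocyte adhesion, averaged 20.1 against 2.83, and *Cd14* 0.300 against 20.01. Of these 4, 1 held 22 UMIs of *Ccr7*, 40 of *Ccl22*, 11 of *Il12b* and 11 of *Ccl17*, genes of migratory dendritic cells. A different cell held 3 UMIs of *Clec9a* and 1 of *Xcr1*, receptors of cross-presenting dendritic cells, together with 1 of *Cd3e* and 2 of *Trac*, genes of T cells. Another held 18 UMIs of *Ccl5*, 6 of *Nkg7*, 3 of *Cd3g* and 3 of *Trbc2*, genes of T cells and natural killer cells. The last 2 are the immune cells with T cell receptor and CD3 genes counted below. Dendritic cell genes were also found beside *Csf1r* and *C1qc*. A control cell with 34 UMIs of *C1qc* held 3 of *Clec9a* and 2 of *Xcr1*, and a *Trf2T188A* cell with 4 of *C1qc* held 7 of *Ccl22* and 4 of *Cd209a*. These cells, and the genes named for them, were picked after their values were seen. *Flt3* and *Zbtb46*, genes of classical dendritic cells, were found in 1 and 3 of the 80 cells.

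Few of the selected cells carried lymphocyte or neutrophil genes. At least 2 of 5 T cell receptor and CD3 genes were found in 2 immune cells and in 11 of the 10279 other cells, 1 control and 10 *Trf2T188A*. Of these 11, 4 lay in the immune cluster without meeting the rule, which reads mainly myeloid genes. At least 2 of 6 B cell genes were found in 1 immune cell, and at least 2 of 5 neutrophil genes in 1. That last cell, from the *Trf2T188A* library, held 64 UMIs of *S100a8* and 115 of *S100a9* and also 716 smooth muscle UMIs per 10000. *Cd8a*, *Lck*, *Klrb1c*, *Ncr1*, *Lcn2*, *Ngp*, *G0s2* and *Jchain* had no UMI in the 80 cells. *Ighm*, the heavy chain of immunoglobulin M, was an exception, with a UMI in 35 immune cells and in none of the 10279 others. Only 6 of these 35 also had *Cd79b*, and *Ighd* was found in 2 of the 80 cells.

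Cells with transcripts of dividing cells made up a larger share of the immune than of the other cells. Both *Mki67* and *Top2a*, genes of dividing cells, had a UMI in 10 of 80 immune cells (12.5%), 6 control and 4 *Trf2T188A*, against 27 of 10279 other cells (0.263%). Among 8 compared cell cycle genes, 2 were higher, *Stmn1* (1.42) and *Mki67* (1.34), with a median of 0.80. The cell with the most *Mki67* by count held 31 UMIs, 34 of *Top2a*, 183 of *Plac8* and 55 of *Prtn3* among 35782 UMIs, came from the control library and had 0 *C1qc* UMIs. *Plac8* and *Prtn3* are known from immature myeloid cells. It was named after its values were seen. The other 9 cells with both genes held 3 to 90 *C1qc* UMIs.

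The genotypes were compared within the immune cells, which asks whether immune cells in an artery with the VSMC transgene differed in transcript levels. These are not macrophages alone, and the 4 low cells without *Csf1r* or *C1qc* were all *Trf2T188A*. The kinds of cells and their transcript levels cannot be told apart in these ratios. Of 8721 genes compared, 17 (0.195%) were at least 1 log2 unit higher and 49 (0.562%) lower in *Trf2T188A* immune cells, with a median of −0.05. With summed UMIs the calls were 33 and 34. In the 61 low smooth muscle cells the numbers were 10 (0.115%) and 21 (0.241%), with a median of −0.0033. Because 38.5% of control and 16.7% of *Trf2T188A* immune cells lay above the smooth muscle limit, each gene is given for both sets.

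Smooth muscle genes were among the lower genes. Over all immune cells 8 of 11 smooth muscle genes were lower, against 49 lower genes in all, with a median of −1.18, and *Acta2* was at −1.74 with 71.8 against 20.8 UMIs per 10000. In the low cells none of the 11 passed the limit, the median was 0.19, and *Acta2* was at 0.84 with 0.937 against 2.48. The limit of 40 was set on these same genes, so their values in the low cells describe the choice of cells and nothing is read from them. The heat shock gene *Hspb1* was at −1.81 over all cells and at −0.20 (−0.71 to 0.31) in the low cells. *Filip1l* was at −1.75 and 0.037 (−0.43 to 0.50). These genes are not in the smooth muscle sum.

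The 3 highest genes of the comparison were *Cxcl1*, *Cd36* and *Nlrp3*. *Cxcl1*, a neutrophil attractant, averaged 2.11 UMIs per 10000 in control (0 to 36.3, median 0) and 8.65 in *Trf2T188A* immune cells (0 to 156, median 0), a log2 ratio of 1.63 (1.28 to 1.98). Single cells weighed heavily, since 1 cell gave 66.1% of the control and 1 cell 33.5% of the *Trf2T188A* level. *Cd36* averaged 0.269 (0 to 3.61) and 2.38 (0 to 19.6), with a UMI in 3 of 26 control cells (11.5%, 2.45 to 30.2) and 26 of 54 *Trf2T188A* cells (48.1%, 34.3 to 62.2). Its log2 ratio was 1.41 (1.07 to 1.76) over all and 1.62 (1.18 to 2.07) in the low cells. *Nlrp3*, the sensor of the inflammasome that releases interleukin-1β, averaged 1.80 (0 to 12.7, median 1.33) and 6.03 (0 to 30.4, median 4.20). It was detected in 15 of 26 control cells (57.7%, 36.9 to 76.6) and 45 of 54 *Trf2T188A* cells (83.3%, 70.7 to 92.1), with a log2 ratio of 1.33 over all and 1.13 in the low cells. The ranges of single cells overlapped for all 3 genes.

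A few class II and chemokine genes passed the limit in *Trf2T188A* immune cells. They were 3 of 12 class II genes (median 0.47) and 2 of 14 chemokines (median 0.42), against 0.195% of all genes. In the low cells they were 0 of 12 (median 0.18) and 2 of 14 (median 0.32), with 1 chemokine lower, against 0.115% of all genes higher and 0.241% lower. *H2-Aa* (1.07), *H2-Ab1* (1.03) and *Cd74* (1.03) passed the limit over all cells, but in the low cells they were at 0.60, 0.57 and 0.58, and no class II gene passed it. Of the chemokines, *Cxcl1* and *Cxcl2* passed it in both sets, *Cxcl2* with 1.24 (1.14 to 1.34) over all and 1.01 (0.90 to 1.12) in the low cells. *Il1b* (0.22 and −0.19) and *Ccl4* (0.35 and −0.10) did not pass it and differed in sign between the sets. Without the highest cell of each library *Il1b* was at 1.26, and without cells under 2000 genes at 2.42. *Ms4a7*, a macrophage surface gene, was at 1.25 and 0.93, *Igf1* at 1.04 and 0.86, and *Dab2* at 1.04 and 0.87. *Igf1* had a UMI in 7 of 26 control cells (26.9%, 11.6 to 47.8) and 31 of 54 *Trf2T188A* cells (57.4%, 43.2 to 70.8). The macrophage genes *C1qc* (0.46 and 0.10), *Csf1r* (0.36 and 0.13) and *Adgre1* (0.28 and 0.05) were closer to equal.

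Some cell cycle genes were lower. *Mki67* averaged 4.07 UMIs per 10000 in control (0 to 37.2, median 0) and 0.421 in *Trf2T188A* immune cells (0 to 10.2, median 0), a log2 ratio of −1.83 (−2.18 to −1.49) over all and −2.34 in the low cells. It was detected in 8 cells of each library, 30.8% (14.3 to 51.8) and 14.8% (6.62 to 27.1), and 1 cell gave 35.2% of the control level. *Stmn1* (−1.22 and −1.72) and *Top2a* (−1.18 and −1.64) had the same sign, and *Pcna* (0.41 and 0.27) had the other. Of 12 cell cycle genes 3 were lower over all cells and 4 in the low cells, with medians of −0.33 and −0.56. Among all 8721 genes compared, 0.562% were lower over all cells and 0.241% in the low cells. Of 14 interferon-stimulated genes 0 were lower over all cells and 2 in the low cells, with medians of −0.30 and −0.51, and *Cxcl10* was at −0.93 and −1.09, with 47.6% of the control level from 1 cell. The stem cell antigen gene *Ly6a*, itself interferon-responsive, was at −1.32 and −1.68, with 69.0% of the control level from 1 cell.

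**Figure D5:**
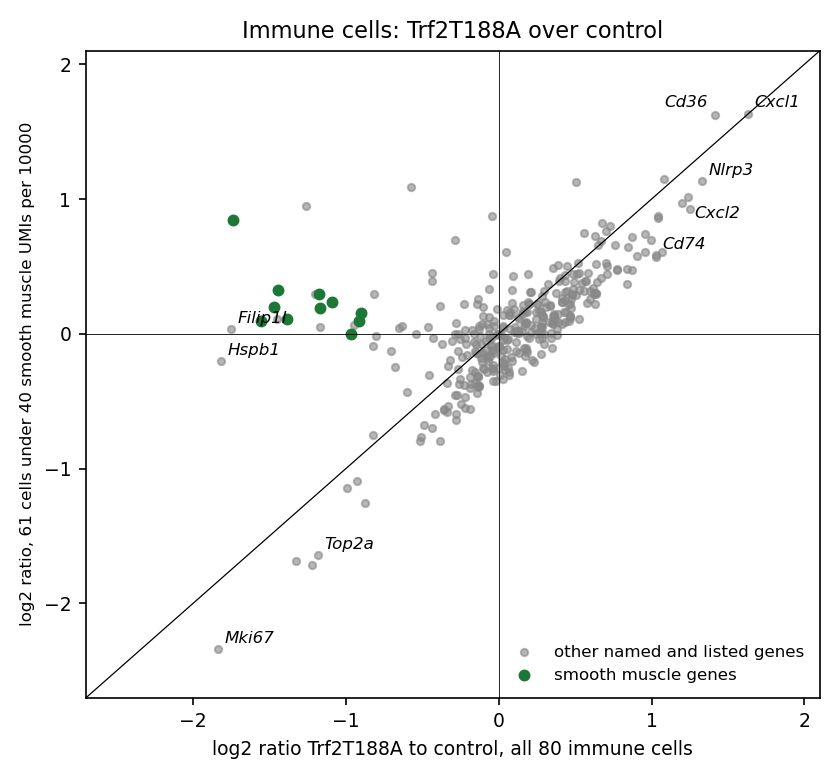
Each point is 1 named or listed gene, with the log2 ratio of *Trf2T188A* to control over all 80 immune cells on the horizontal and over the 61 cells under 40 smooth muscle UMIs per 10000 on the vertical axis, and the diagonal marks equal values. Smooth muscle genes (green) lie far above the diagonal, with a median of −1.18 on one axis and 0.19 on the other, while *Cxcl1*, *Cd36*, *Nlrp3*, *Mki67* and *Top2a* lie near it or further from 0.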

How the data were processed

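Processed matrices from 4 libraries (10x Chromium Single Cell 3' v3) were analysed. The authors aligned reads to GRCm38 with Cell Ranger, by the paper in version 6.1.2 for the ligation libraries and a later version for the plaque libraries. In the ligation libraries they kept cells with at least 1200 genes, at most 6% mitochondrial reads and at most 40% of reads from the top genes. The deposited values (unit: signal) are UMIs of a gene divided by the UMIs of its cell, times 10000. Whole UMI counts were recovered from them. Levels were averaged over cells, and log2 ratios used a pseudocount of 1, a filter of 10% of cells with a UMI, and 95% counting intervals (delta method). No test was run, as each genotype had 1 library. Clustering used Seurat 5.3.0 (2000 variable genes, 17 principal components, resolution 0.2) and doublets Scrublet in scanpy 1.11.5. Scripts were tested on simulated data.

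The cells and gene lists were chosen with earlier results of these data known, and the limit of 40 smooth muscle UMIs after seeing them. Genes named were the 14 rule genes, the 25 highest and 5 lowest ratios, the 3 highest and 3 lowest genotype ratios, and list genes found in at least 25% of immune cells, of the 4 highest levels in their list, or at 0. Others in lists were named after their values were seen. Alternatives were other marker limits, the Seurat cluster, thinning to 5000 UMIs, single libraries, other ratio scales, filters on genes per cell and doublet scores, the smooth muscle limit, and leaving out the highest cell of each library. A few genes that the lists hold and the counts include are not reported here by name.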

Additional observations from a re-analysis of the deposited data

Results flagged for a closer look

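The same rule was applied to the plaque libraries, which the comparisons above do not use. The authors had kept only plaque cells of clusters that expressed the Confetti reporter, which selects VSMC-derived cells. Few leukocytes could therefore be found, and the shares below do not measure the immune share of a plaque. It found 0 of 1502 cells in the ApoE-/- library, which allows a share of up to 0.1997% by a floor of 3 cells and 0.245% by the exact binomial interval, and 2 of 929 cells in the Trf2T188A/ApoE-/- library (0.215%, 95% exact binomial interval 0.0261 to 0.776). Both cells had UMIs of *Lyz2*, *C1qa*, *C1qb*, *Fcer1g* and *Tyrobp*, no *Csf1r* UMI, and smooth muscle sums of 354 and 274 UMIs per 10000. They held 34774 and 2117 UMIs in all, of which 82 and 1 came from the Confetti reporter genes that mark VSMC-derived cells. The shares cannot be told apart at this depth, and the source of the leukocyte transcripts in these cells was not tested.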

How the results depend on the processing

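The immune share was 0.322% in the control under the 40 limit, and thinning gave 0.302% and 0.745% (control and *Trf2T188A*). Against other cells, a pseudocount of 0.1 called 1134 genes higher and 1368 lower, since it gives low genes larger ratios. The difference of mean log2 values called 167 higher, summed UMIs 129 lower, the control library alone 133 lower, and the low cells 436 lower. Between genotypes the genes higher were 9 with at least 5 markers, 10 in the low cells, 423 at pseudocount 0.1, 33 with summed UMIs, 74 without cells under 2000 genes and 27 without the highest cell of each library. The genes lower were 17 in the Seurat cluster, 21 in the low cells, 914 at pseudocount 0.1 and 105 without cells under 2000 genes. In the low cells the smooth muscle median turned to 0.22 with the detection filter applied anew (0.19 over the same 11 genes) and *Filip1l* to 0.037, and smooth muscle levels were 0.183% and 1.68% of the rest. Thinning moved *Trem2* to 38.1% of control cells, and *Csf1r* to 65.1% and *Adgre1* to 60.5% of *Trf2T188A* cells. Causes were not tested beyond these settings.

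Without cells under 2000 genes the genotype ratio of *Cd74* was 1.93 and of *Cxcl2* 2.45, and in the Seurat cluster 0.56 and 0.78. Over the 10 settings computed *Mki67* ran from −3.0 to −1.60 and *Cxcl1* from 1.49 to 2.50. No paired analysis was possible because each genotype had 1 library and the labels give no replicate numbers. With 26 and 54 cells, a gene seen in few cells depends on single cells.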
